A study of Mus musculus with 2 samples.

Results

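The CTCF map of mouse T cell precursors was examined in 3 large arrays of olfactory receptor (Olfr) genes, on chromosomes 2, 7 and 9. The arrays were taken as chr2:84900000-90200000, chr7:109600000-115900000 and chr9:37500000-40000000 on the mm9 build. On chromosome 7 the stretch from 110800000 to 111200000, which holds the beta globin locus, was left out. A region was a run of touching 25-bp bins of the deposited peak track, and it belonged to an array if its centre lay there. Of the 53551 regions of the track, 101 lay in the arrays: 17 on chromosome 2, 77 on chromosome 7 and 7 on chromosome 9. The choice went by position and used no measured value, but it was made with earlier results of these data known. For comparison, the 3 Mb on each side of every array, called the lower and the higher flank after their coordinates, held 588 regions.

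The library came from CD4-CD8- (DN) thymocytes of C57BL/6 mice that lack Rag1 (Rag -/-), 4 to 8 weeks old, immunoprecipitated with an antibody against CTCF. Without RAG1 the cells cannot rearrange their antigen receptor genes and stop at the double-negative stage. There was 1 such library and no replicate, and the input library of the same cells had no file in use here. The number of animals pooled is not given in the labels. The track gives positions only, so every site counted as present or absent, its width was the sole measure of size, and the read depth is unknown. All intervals below are 95% intervals for counting error alone. Regions occur in groups, so the true errors are larger, and no p-value is given. No expression data came with the map, so the labelled cell type could not be checked against its markers.

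Olfactory receptors are G protein-coupled receptors that detect odorants in the nose. Their genes form the largest gene family of the mouse genome and lie in long tandem arrays that arose by repeated duplication, with many members alike in sequence. Each olfactory neuron expresses a single receptor allele, and in other tissues the genes are largely silent. CTCF is a zinc-finger protein that binds a long DNA motif and stops the extrusion of chromatin loops by cohesin. Its sites are common near active genes and at the borders of chromatin domains.

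The Olfr stretches of the 3 chromosomes differ in what else they hold. In RefSeq's gene order on GRCm38, used here for names and neighbours only, the longest Olfr stretch of chromosome 2 ran from Olfr987 to Olfr1274, between Lrrc55 and Ptprj. It held 222 protein-coding Olfr genes and just 3 others: Fads2b, a fatty acid desaturase, and Pramel7 and Pramel6 of the PRAME family. On chromosome 9 the stretch ran from Olfr160 to Olfr986, between Panx3 and Zfp202. It held 95 Olfr genes and 3 others (Vwa5a, AW551984 and Tmem225). The stretch on chromosome 7, from Olfr543 to Olfr519 between Rrm1 and Nlrp10, was mixed, with 193 Olfr genes and 55 others, 22.2% of its genes. Besides the 5 beta globin genes between Olfr67 and Olfr66, these others included a block of 11 genes between Olfr649 and Olfr651, most of them Trim genes of the antiviral tripartite-motif family. A block of 21 genes between Olfr692 and Olfr693 included Ilk (integrin-linked kinase), Taf10 (a subunit of the general factor TFIID), Tpp1 (a lysosomal peptidase) and Smpd1 (acid sphingomyelinase). A further 6, among them Syt9 and Cyb5r2, lay between Olfr716 and Olfr467. The longest unbroken series of Olfr genes numbered 123 on chromosome 2 (Olfr153 to Olfr1274, after Pramel6), 42 on chromosome 7 (Olfr467 to Olfr519, after Ovch2) and 40 on chromosome 9 (Olfr160 to Olfr919, before Vwa5a). The gene table and the track follow different builds, so no gene was assigned to a CTCF region.

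The promoter sequences of these receptor genes rarely held the core of the CTCF motif. The 300-base windows supplied from RefSeq (GRCm38.p6), 250 bases before and 50 after each annotated start, were searched on both strands for CCANNAGNNGGC, whose reverse complement is GCCNNCTNNTGG. A window was found for 435 of the 510 Olfr genes of the 3 stretches. Of their 437 windows, 2 held the motif (0.458%, exact interval 0.0555 to 1.64%), against 797 of 32851 windows of all genes (2.43%, 2.26 to 2.60%). The same 2 were the only matches in the 948 windows of all Olfr genes (0.211%, 0.0256 to 0.760%). The low share was thus not particular to the 3 stretches. Many receptor genes are alike in sequence and some genes have several windows. The windows are thus not independent, and the true errors of these shares and those below are larger. The 2 matches were in Olfr1253 on chromosome 2 and in Olfr66, which borders the beta globin genes on chromosome 7. They are printed with the motif letters in capitals, beside Olfr153, the first gene of the longest unbroken series on chromosome 2, which has no match. Positions are chr2:89752777-89753076 (minus strand) for Olfr1253, chr7:103882192-103882491 (minus strand) for Olfr66 and chr2:87531785-87532084 (plus strand) for Olfr153, all on GRCm38.p6, and each sequence runs 5′ to 3′ along its gene.
Olfr1253: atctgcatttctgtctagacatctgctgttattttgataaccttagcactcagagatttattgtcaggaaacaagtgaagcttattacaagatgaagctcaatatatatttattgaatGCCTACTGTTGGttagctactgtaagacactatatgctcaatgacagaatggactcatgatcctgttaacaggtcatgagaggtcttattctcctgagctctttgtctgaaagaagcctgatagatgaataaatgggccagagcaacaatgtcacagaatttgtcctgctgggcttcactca
Olfr66: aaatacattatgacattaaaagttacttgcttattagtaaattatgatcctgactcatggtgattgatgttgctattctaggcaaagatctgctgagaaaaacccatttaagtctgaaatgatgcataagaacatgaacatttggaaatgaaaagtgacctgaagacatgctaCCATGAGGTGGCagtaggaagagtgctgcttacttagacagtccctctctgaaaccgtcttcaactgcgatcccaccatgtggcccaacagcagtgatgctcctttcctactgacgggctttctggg
Olfr153: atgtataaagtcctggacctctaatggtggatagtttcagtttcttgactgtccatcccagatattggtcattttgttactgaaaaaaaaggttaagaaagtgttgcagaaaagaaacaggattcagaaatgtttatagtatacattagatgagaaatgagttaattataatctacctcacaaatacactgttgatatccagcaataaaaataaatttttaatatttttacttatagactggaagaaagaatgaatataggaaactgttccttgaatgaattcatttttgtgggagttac
The motif lay at bases 119 to 130 of the Olfr1253 window, on the strand opposite to the gene, and at bases 174 to 185 of the Olfr66 window, on the gene's own strand.

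Base composition moved with that difference. The Olfr windows of the 3 stretches had a median GC content of 34.0%, against 53.3% over the windows of all other genes. Among windows below 40% GC, 1 of 718 windows of all Olfr genes held the motif (0.139%, exact interval 0.00353 to 0.774%), compared with 28 of 2584 windows of other genes (1.08%, 0.721 to 1.56%). In that class the Olfr windows were still lower in GC, with a median of 33.7% against 36.7%. At 40 to 50% GC, 1 of 204 Olfr windows (0.490%, 0.0124 to 2.70%) and 195 of 9407 others (2.07%, 1.79 to 2.38%) held it. The intervals overlapped in both classes. In 71.6% of the Olfr windows of the stretches the annotated start was an ATG, against 3.85% of the windows of other genes. Many of these annotated starts are therefore start codons, and the windows need not be the promoters in use. A match is a run of letters and not a measured site, and these windows were not joined to the track.

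CTCF regions were scarce in the arrays and frequent just outside them. The arrays held 7.37 regions per Mb (exact Poisson interval 6.00 to 8.96; 101 regions in 13.7 Mb), and their flanks held 32.7 per Mb (30.1 to 35.4; 588 regions in 18 Mb). The density was thus 4.43-fold lower inside, a ratio of 0.226 (exact interval 0.181 to 0.279). Regions covered 0.282% of the arrays and 1.31% of the flanks. The flanks were themselves denser than the genome: they had 1.51 times (1.39 to 1.63) the 21.7 regions per Mb of the autosomes 1 to 19. Set against all autosomes instead, the arrays stood at a ratio of 0.340 (0.277 to 0.413).

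**Figure D1:**
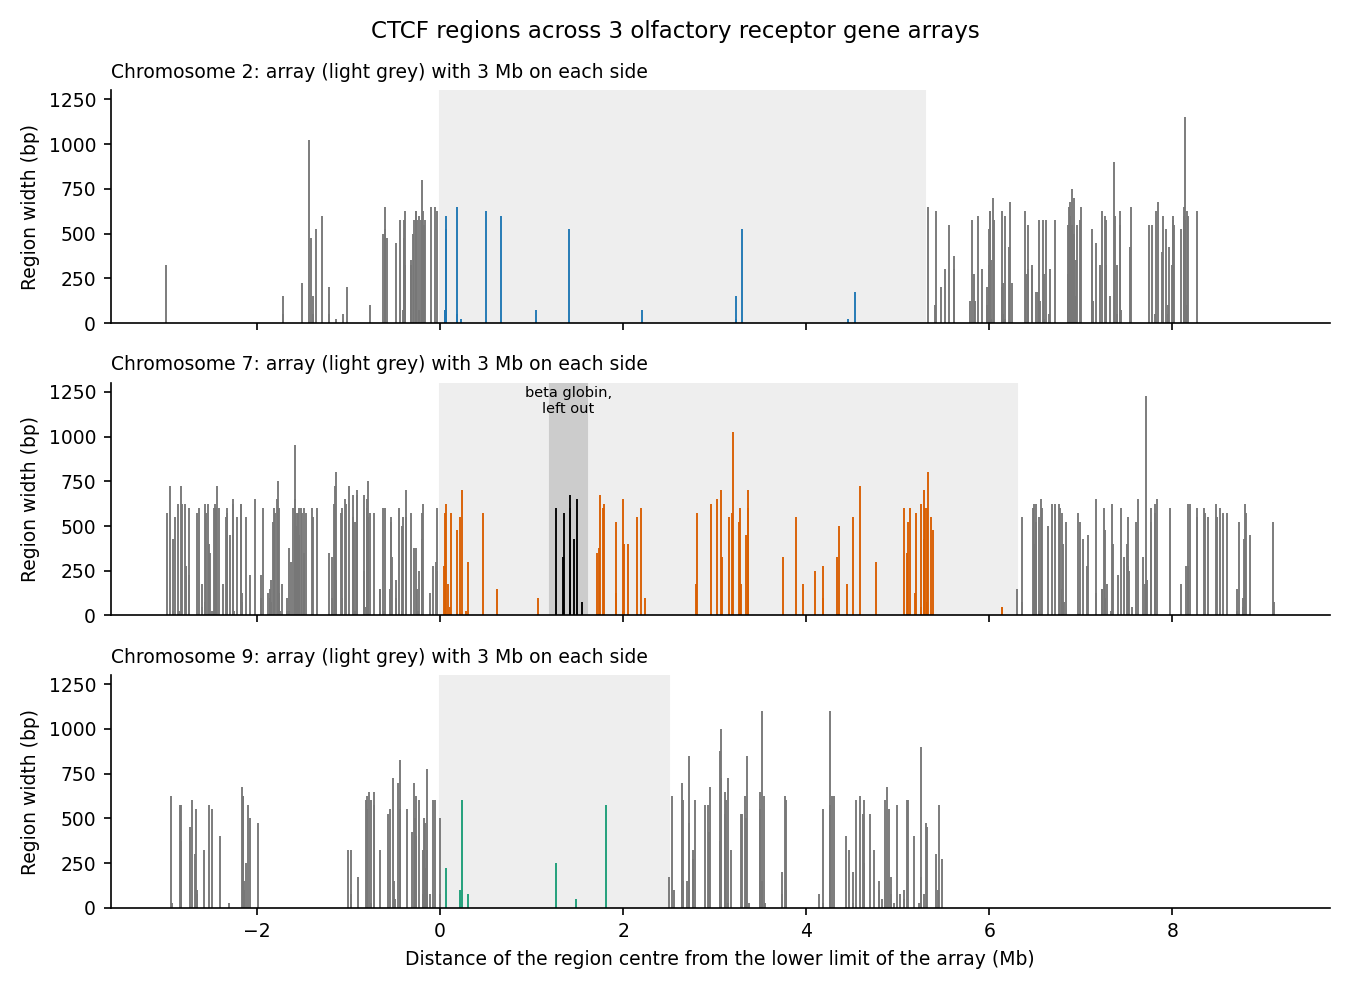
Each vertical line is a CTCF region, placed by its centre (x axis, distance from the lower limit of the array in Mb) with its width in bp as height, for the arrays on chromosomes 2, 7 and 9 (coloured, on light grey), the 3 Mb on each side (grey) and the left-out beta globin locus (black). Lines are few and far apart in the arrays on chromosomes 2 and 9, with 17 and 7 regions, whereas the 77 regions on chromosome 7 stand in groups separated by empty stretches.

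The scarcity was deepest on chromosomes 2 and 9. The array on chromosome 2 had 3.21 regions per Mb (1.87 to 5.14) against 28.7 (24.5 to 33.3) in its flanks, a ratio of 0.112 (0.0637 to 0.184). On chromosome 9 the values were 2.80 per Mb (1.13 to 5.77) and 27.8 (23.8 to 32.4), a ratio of 0.101 (0.0398 to 0.212). The array on chromosome 7 had 13.1 per Mb (10.3 to 16.3) against 41.5 (36.5 to 47.0), a ratio of 0.314 (0.240 to 0.408). The Olfr stretch of that chromosome on GRCm38 held the largest share of other genes, though 5 of them were the beta globin genes. All 3 ratios lay below 1 by more than counting error, and no array interval reached that of either of its flanks. The flanks of chromosome 7 had 1.91 times (1.68 to 2.17) the autosomal density, against 1.32 and 1.28 times for those of chromosomes 2 and 9. Set against all autosomes, the array on chromosome 7 stood at 0.601 (0.475 to 0.752). The arrays on chromosomes 2 and 9 stood at 0.148 (0.0861 to 0.237) and 0.129 (0.0519 to 0.266).

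The arrays differed among themselves by more than counting error. The ratio to the flanks on chromosome 2 was 0.357 times that on chromosome 7 (exact interval 0.191 to 0.635). The same ratio on chromosome 9 was 0.321 times that on chromosome 7 (0.122 to 0.717). Between chromosomes 2 and 9 the quotient was 1.11, with an interval from 0.424 to 3.25 that leaves room for a difference in either direction. Whether the number of other genes accounts for the higher density on chromosome 7 was not tested. The pooled ratio leans on chromosome 7, which gave 77 of the 101 regions: without it the ratio was 0.109 (0.0688 to 0.165).

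**Figure D2:**
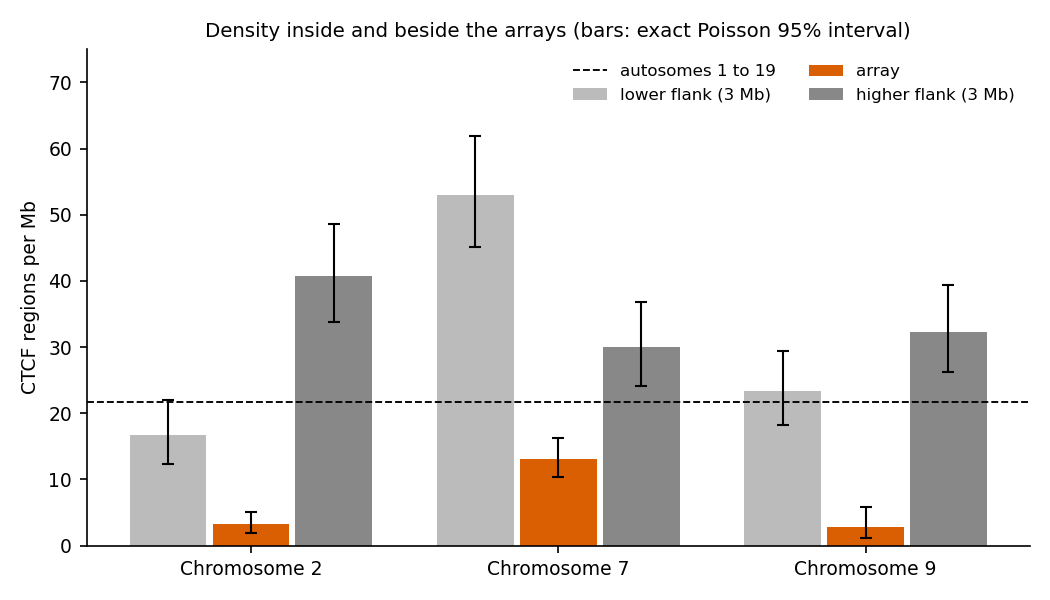
Bars give CTCF regions per Mb (y axis) for each array and its lower and higher flank of 3 Mb, with exact Poisson 95% intervals, and the dashed line marks the 21.7 regions per Mb of the autosomes 1 to 19. The arrays stand at 3.21, 13.1 and 2.80 per Mb on chromosomes 2, 7 and 9, each below both of its flanks and below the autosomal line.

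The change in density at the array limits was steep in sum, but not at every limit. Summed over the 6 limits, the last 250 kb outside held 71 regions, the highest count of the 12 such steps in the flanks, which otherwise held 35 to 60. The first 250 kb inside held 21, and the next 3 steps inside held 4, 4 and 7. Chromosomes 2 and 7 still had 7 and 9 regions in the first 250 kb inside their lower limits. The last 250 kb outside those limits held 16 and 11, so the step at the lower limit of chromosome 7 was small. At the higher limits of chromosomes 2 and 9 the first step inside was empty, against 5 and 12 regions in the last step outside. The limits are round numbers, so some of these first regions may lie before the outermost receptor gene, which was not determined. With 250 kb taken off each end of the arrays, the pooled ratio was 0.201 (0.157 to 0.254).

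**Figure D3:**
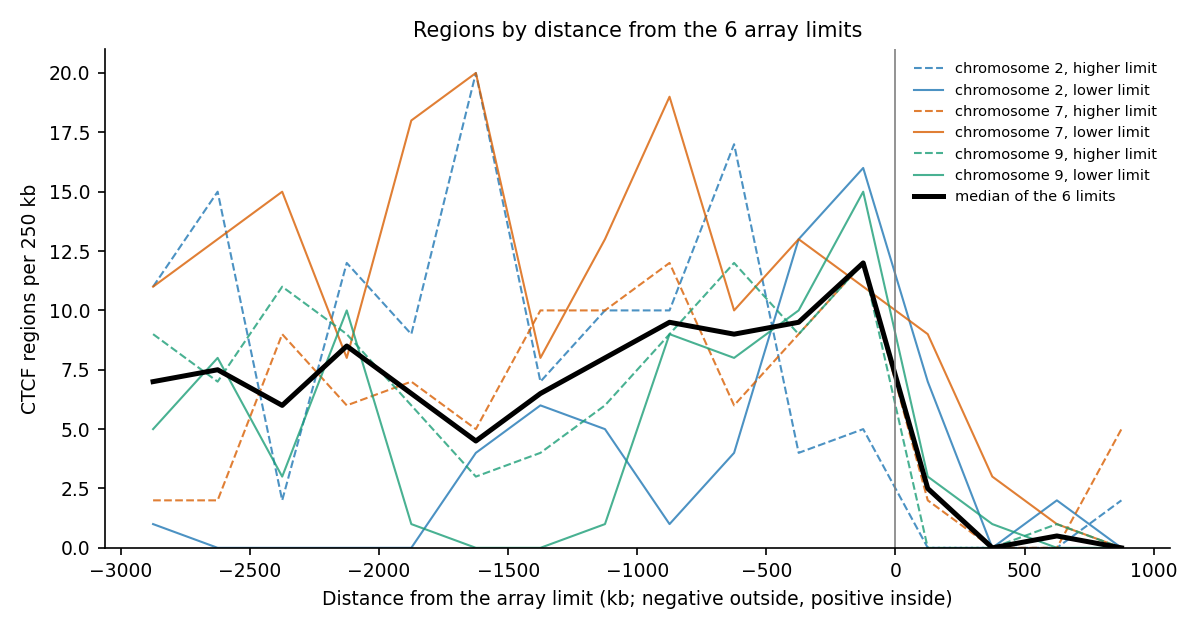
Lines give CTCF regions per 250 kb (y axis) by distance from an array limit (x axis, kb, negative outside and positive inside) for each of the 6 limits, with their median in black. The median falls from 12 regions in the last step outside to 2.5 in the first step inside and to 0 in the next.

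Neighbouring regions lay far apart inside the arrays. The median gap between neighbours was 36.6 kb there (order-statistic interval 26.7 to 59.5 kb, 97 gaps) and 14.4 kb in the flanks (12.3 to 17.4 kb, 582 gaps), close to the 14.4 kb of the autosomes. Gaps over 100 kb made up 25 of 97 gaps in the arrays and 27 of 582 in the flanks, an odds ratio of 7.10 (exact interval 3.74 to 13.5). As shares these were 25.8% (17.4 to 35.7%) and 4.64% (3.08 to 6.68%), beside 9.94% of all autosomal gaps. The median gap was 94.7 kb on chromosome 2 (0.175 to 379 kb, 16 gaps), 185 kb on chromosome 9 (26.7 to 955 kb, 6 gaps) and 29.4 kb on chromosome 7 (18.4 to 42.2 kb, 75 gaps). The pooled ratio of median gaps, 2.54, was 8.53 without chromosome 7. The interval of that value, 1.66 to 22.4 with the flank median taken as fixed, includes 2.54.

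**Figure D4:**
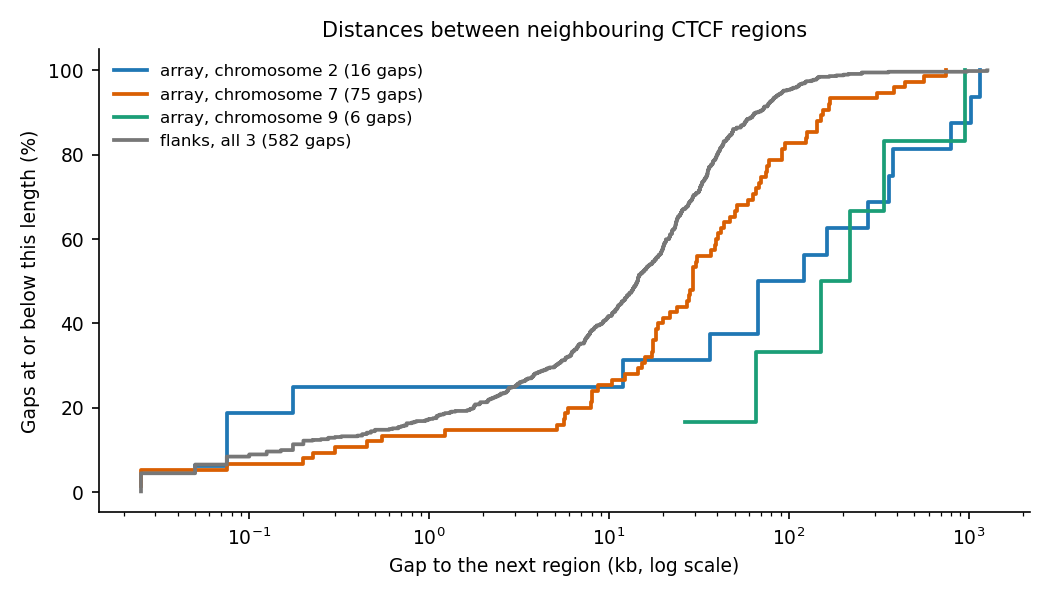
Curves give the percentage of gaps (y axis) at or below a given length (x axis, kb, log scale) between neighbouring CTCF regions inside each array and, in grey, in the flanks of all 3. At their medians the array curves lie to the right of the flank curve, with of 94.7, 29.4 and 185 kb on chromosomes 2, 7 and 9 against 14.4 kb, while the longest flank gap, 1272 kb, exceeds every gap inside the arrays.

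On chromosome 2, 9 of the 17 regions lay near the lower limit, between 84951149 and 85566373. Of these, 5 were 500 bp or wider, among them the 3 widest of the array: 650 bp (85086499 to 85087148), 625 bp (85401224 to 85401848) and 600 bp (84963874 to 84964473, tied with 85565774 to 85566373). The 100-kb bin with the most regions, 4, began at 84900001. The other 8 regions were strewn over the remaining part in 5 groups of 3 or fewer. A region of 75 bp lay at 85945299 to 85945373, one of 525 bp at 86304749 to 86305273 and one of 75 bp at 87104274 to 87104348. Regions of 150, 25 and 525 bp lay between 88128874 and 88196898, and regions of 25 and 175 bp between 89361324 and 89428548. The longest gaps between them ran for 1164 kb (88196899 to 89361323), 1025 kb (87104349 to 88128873) and 799 kb (86305274 to 87104273). After the last region, at 89428374 to 89428548, 806 kb passed before the next, which lay beyond the array.

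On chromosome 9 the 7 regions can be given singly. The first 4 lay within 245 kb of each other: 225 bp at 37561126 to 37561350, 100 bp at 37713251 to 37713350, 600 bp at 37740001 to 37740600 and 75 bp at 37806301 to 37806375. A gap of 955 kb followed (37806376 to 38761575). Then came 250 bp at 38761576 to 38761825, 50 bp at 38979676 to 38979725 and 575 bp at 39316451 to 39317025, separated by 218 and 337 kb. After the last of them no region was listed for 683 kb, as far as 40000100, just past the higher limit. The regions of 600, 575 and 250 bp were the 3 widest of this array, and its fullest 100-kb bin, beginning at 37700001, held 2 regions.

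The regions on chromosome 7 were gathered in groups. Divided at the left-out beta globin locus and wherever a gap exceeded 300 kb, a limit chosen after the data were seen, they fell into 7 groups, of which 5 had 10 or more regions. The arrays on chromosomes 2 and 9 had 0 groups of that size, but they held only 17 and 7 regions in all. On chromosome 9 such a group could not occur, so this count shows no difference in grouping. The flanks were not divided in this way. The 5 groups on chromosome 7 held 74 of the 77 regions in 2.998 Mb. The densest, from 114669730 to 114985654, had 17 regions in 316 kb, 10 of them 500 bp or wider, and included the fullest 100-kb bin, with 7 regions from 114800001. The group from 112396805 to 112967529 had 16 regions, 11 of them 500 bp or wider and none of 100 bp or less, with a median width of 575 bp. Another 16 regions lay between 111315505 and 111835479, past the beta globin locus, and 13 between 109639730 (the first region of the array) and 110220179. The group from 113350055 to 114360604 was sparser, with 12 regions over 1011 kb and a median width of 313 bp. The genes under these groups were not determined.

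Empty stretches on chromosome 7 were shorter than on chromosome 2. The longest were 751 kb (114985655 to 115736229), 561 kb (111835480 to 112396804) and 444 kb (110220180 to 110664504). After the first of these only a pair of 50-bp regions followed, the last at 115736355 to 115736404. The widest regions of the array measured 1025 bp (112799130 to 112800154), 800 bp (114931630 to 114932429) and 725 bp (114189205 to 114189929). The left-out beta globin locus, in the midst of the Olfr genes, held 8 regions in 0.4 Mb, or 20 per Mb (8.63 to 39.4), of which 5 were 500 bp or wider. With the locus kept in, the ratio on chromosome 7 was 0.325.

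Long empty stretches were frequent in the arrays without being peculiar to them. The arrays took up 0.569% of the autosomal span and held 0.193% of the autosomal regions. They touched 8 of the 592 autosomal gaps over 500 kb, or 1.35%, of which 6 lay inside an array and the others reached over a limit. A long gap can touch an array by one end, so the 1.35% is not directly comparable with the share of the span. Of these 8 gaps, 4 were on chromosome 2, 2 on chromosome 7 and 2 on chromosome 9. The 1164 kb gap on chromosome 2 was matched or exceeded by 114 autosomal gaps in all. Gaps of this size also occurred in the flanks, with 1272 kb on chromosome 2 (81905249 to 83177723) and 980 kb on chromosome 9 (35515226 to 36494875). The lower flank of chromosome 2 was the sparsest of the 6 flanks, with 16.7 regions per Mb (12.4 to 22.0).

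In fixed steps the same contrast appeared. Gaps, empty bins and solitary regions come from the same positions as the density, so they are not separate evidence of scarcity. Of the 137 bins of 100 kb in the arrays, 87 had no region (63.5%, exact interval 54.9 to 71.6%), whereas 33 of 180 bins in the flanks were empty (18.3%, 13.0 to 24.8%). The odds ratio was 7.69 (4.50 to 13.4). Over chromosomes 1 to 19 and X, 40.0% of such bins were empty. Bins without a region made up 79.2% of the array on chromosome 2 (65.9 to 89.2%), 76.0% on chromosome 9 (54.9 to 90.6%) and 44.1% on chromosome 7 (31.2 to 57.6%), the last near the value of the genome.

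Whole megabases inside the arrays were low but not at the bottom of the genome. Of the 10 windows of 1 Mb wholly inside an array and clear of the beta globin locus, 6 held 5 regions or fewer, against 24.5% of the 2545 windows of chromosomes 1 to 19 and X. On chromosome 2 the windows from 85 to 90 Mb held 6, 1, 1, 3 and 2 regions, and on chromosome 9 the windows from 38 to 40 Mb held 2 and 1. A count of 1 or less was found in 9.74% of all windows. On chromosome 7 the windows at 112, 113 and 114 Mb held 16, 8 and 21, beside a genome median of 16.

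Regions in the arrays stood alone more often. The nearest other region was over 100 kb away for 13 of the 101 array regions (12.9%, exact interval 7.04 to 21.0%) and for 3 of the 588 flank regions (0.510%, 0.105 to 1.48%), an odds ratio of 28.6 (7.64 to 159). Over the autosomes the share was 3.07%. By array, these were 5 of 17 regions on chromosome 2 (29.4%, 10.3 to 56.0%) and 3 of 7 on chromosome 9 (42.9%, 9.90 to 81.6%). On chromosome 7 they were 5 of 77 (6.49%, 2.14 to 14.5%), against 0.402% of the regions in its flanks. The interval on chromosome 7 includes the autosomal share. In the closest class, under 1 kb to the nearest region, the intervals overlapped, with 25 of 101 array regions (24.8%, 16.7 to 34.3%) and 180 of 588 flank regions (30.6%, 26.9 to 34.5%). On chromosome 2 that class held 8 of 17 array regions (47.1%) and 32.0% of the flank regions. At 1 to 10 kb the arrays had 15 regions (14.9%, 8.56 to 23.3%), all on chromosome 7, and the flanks 198 (33.7%, 29.9 to 37.7%). Over the autosomes, 29.1% of regions were under 1 kb and 35.3% were 1 to 10 kb from the nearest other.

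Over all 3 arrays, widths gave no difference beyond counting error. The median width was 450 bp in the arrays (order-statistic interval 300 to 525 bp) and 475 bp in the flanks (400 to 525 bp). In the arrays 47 of 101 were 500 bp or wider (46.5%, exact interval 36.5 to 56.7%) and in the flanks 290 of 588 (49.3%, 45.2 to 53.4%), beside 46.8% over the autosomes. The odds ratio of 0.895 had an interval from 0.572 to 1.40, which includes 1. Counting the wider regions alone left the scarcity as it was, with a density ratio of 0.213 (0.153 to 0.291).

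**Figure D5:**
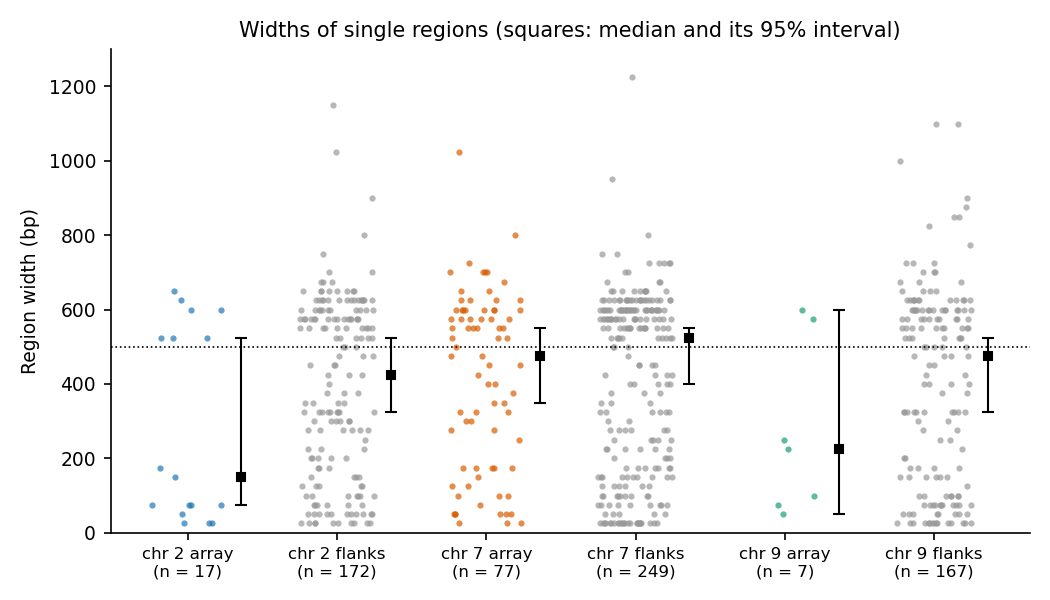
Points are single CTCF regions by width in bp (y axis) in each array and in its 2 flanks together, squares give the median with its order-statistic 95% interval, and the dotted line marks 500 bp. Array medians of 150, 475 and 225 bp on chromosomes 2, 7 and 9 compare with 425, 525 and 475 bp in the flanks, and the intervals of each pair overlap.

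Narrow regions were frequent in the array on chromosome 2, on small numbers. Those of 100 bp or less were 8 of 17 on chromosome 2 (47.1%, exact interval 23.0 to 72.2%) and 3 of 7 on chromosome 9 (42.9%, 9.90 to 81.6%), but 13 of 77 on chromosome 7 (16.9%, 9.31 to 27.1%). The flanks of all 3 had 20.9% (17.7 to 24.4%) and the autosomes 22.4%. Taken singly, the flanks of chromosomes 2, 7 and 9 had 19.8%, 19.3% and 24.6%. The odds ratio of an array to its own flanks was 3.58 on chromosome 2 (1.11 to 11.3). On chromosomes 7 and 9 it was 0.851 (0.397 to 1.72) and 2.29 (0.322 to 14.2), and both intervals include 1. These values are among 16 odds ratios of width computed for the arrays, 8 of them after joining, without adjustment. Some of the narrow regions on chromosome 2 lay within 200 bp of another region, which was not always a wider one. After regions within 200 bp were joined, 4 of 13 on chromosome 2 were that narrow, and the odds ratio was 3.52 (0.714 to 14.4).

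Isolation and width could be looked at together. Among regions over 100 kb from the nearest other, 5 of 13 in the arrays were 500 bp or wider (38.5%, exact interval 13.9 to 68.4%), with a median width of 300 bp, the same median as the 1606 such regions of the autosomes, of which 31.9% (29.6 to 34.2%) were that wide. At 10 to 100 kb the shares were 47.9% (33.3 to 62.8%, 48 regions) in the arrays and 57.0% (50.0 to 63.8%, 207 regions) in the flanks. The autosomal share in that class was 51.8%. The 3 solitary wide regions of chromosome 2 included the 625 bp and 600 bp regions between 85401224 and 85566373. The intervals overlapped in both of these classes of distance.

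Receptor genes of an array resemble one another, and the handling of reads that fit several places in the genome is not given in the sources used here. How much of the arrays could be mapped was not tested. Sites below the authors' threshold are not listed, so a stretch without a region is not shown to be free of CTCF.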

How the data were processed

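The authors deposited 1 peak track in browser format, which holds start and end positions of 25-bp bins (825544 bins, 0 of another length) and no score. Bowtie and the mm9 build are named in the submitters' processing notes. No source used here gives the peak caller, its threshold or the use of the input.

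Touching bins were joined into regions and converted to 1-based positions. Density intervals are exact Poisson, intervals of shares and of density ratios exact binomial (Clopper-Pearson), odds ratios conditional exact, and intervals of medians rest on order statistics. The intervals are at 95%, and no p-value was computed from 1 library. Gaps were counted where both neighbours lay in the same span. Autosomal density was taken over the distance between the outermost regions of each chromosome. An Olfr stretch allowed up to 30 other protein-coding genes between neighbouring Olfr genes. Named sites were the 3 widest regions, the 3 longest gaps, the first and last region and the fullest 100-kb bin of each array. Named genes were those at the ends of the longest runs, with their neighbours; the genes between runs and those with a motif match were named after their values were seen. The members and lists were chosen with earlier results of these data known. Sequences at the CTCF regions were not used, because no mm9 genome was supplied. The code was tested on simulated data. Python 3.11.15 was used with scipy 1.17.1 for the intervals, pandas 2.3.3 and numpy 2.4.6 for the tables and matplotlib 3.10.9 for the plots.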

Additional observations from a re-analysis of the deposited data

How the results depend on the processing

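The 6 results were recomputed in 69 ways: 62 values lay inside the counting interval of the reported value, 7 moved outside it and 0 changed direction. For the ratio of median gaps and the difference in wide shares, that interval covers the error of the array value alone. The flank value was taken as fixed there. The pooled density ratio of 0.226 became 0.180 with flanks of 1 Mb, 0.288 without the array on chromosome 2, 0.109 without the array on chromosome 7 and 0.340 against all autosomes, an alternative chosen after seeing the data. The pooled ratio of median gaps, 2.54, became 8.53 without the array on chromosome 7, with an interval of 1.66 to 22.4 that includes 2.54. The ratio on chromosome 2 became 0.192 with the lower flank alone, and the ratio on chromosome 7 became 0.435 with the higher flank alone. Over all alternatives the density ratio ran from 0.109 to 0.340 pooled, from 0.0727 to 0.192 on chromosome 2, from 0.246 to 0.435 on chromosome 7 and from 0.0585 to 0.122 on chromosome 9. The ratios of single arrays to all autosomes were not among these alternatives. Fewer arrays or another flank is what moved these values by construction; beyond that the cause was not tested. Joining regions and filtering by width moved no value outside its interval. No paired analysis was possible because the map rests on 1 library. The unknown depth limits what can be said of weaker sites.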
